A study of Rattus norvegicus with 9 samples.

Results

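The interleukin-6 family of cytokines, the receptors that bind them, the transcription factor Stat3 and its feedback inhibitor Socs3 were followed in rat brain 1 day after a stroke. The genes were 10 named members, chosen by symbol from the gene table, and all 10 were present among its 22888 genes: the cytokines Il6, Il11, Lif and Osm, the receptors Il6r, Il6st, Lifr and Osmr, and Stat3 and Socs3. All 10 passed the filter on low values and were tested with 17770 genes in all.

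RNA was sequenced from brain tissue of male Sprague-Dawley rats in 9 libraries. Sham 1, 3 and 5 came from sham-operated rats, model 1, 3 and 4 from rats with an occlusion of the middle cerebral artery on a single side, and astaxanthin 1, 2 and 3 from rats that were occluded in the same way once they had been dosed for 7 days, by gavage, with 45 mg/kg of the carotenoid astaxanthin, the medium dose of the study. Tissue was taken 1 day after the occlusion. The labels give neither the brain region nor the side, do not say whether sham and model rats received a vehicle, and do not say that each library came from a separate animal, so p-values measure only the spread between these samples. The series set out to examine nerve cell apoptosis and Toll-like receptor signalling, so these genes lie beside its stated question.

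Cytokines of this family signal through a shared receptor subunit, gp130, encoded by Il6st. Il6 and Il11 each bind a receptor of their own, Il6r or Il11ra1, which then engages gp130, while Lif signals through gp130 paired with Lifr, and Osm through gp130 paired with Osmr or Lifr. The receptors activate Janus kinases, these phosphorylate Stat3, and Stat3 switches on genes that include Socs3, whose product shuts the receptor complex down again. In injured brain the pathway is known for its part in the reaction of astrocytes and in leukocyte recruitment.

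The DNA just upstream of 3 of the members is shown because it holds matches to binding motifs of factors known to respond to injury. The sequences are the 250 bases before the annotated gene start, from RefSeq on the GRCr8 assembly, 5′ to 3′ on the gene's strand, and capitals mark the motif matches. Windows were at hand for 8 of the 10 members. Lif and Osm were not analysed here in this respect.

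Il6, chr4:5894576-5894825, minus strand: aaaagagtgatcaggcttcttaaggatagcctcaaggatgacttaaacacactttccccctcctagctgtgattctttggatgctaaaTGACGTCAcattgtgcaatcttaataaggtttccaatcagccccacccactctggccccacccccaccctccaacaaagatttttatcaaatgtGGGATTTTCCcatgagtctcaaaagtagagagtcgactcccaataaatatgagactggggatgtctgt

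Il11, chr1:78098372-78098621, plus strand: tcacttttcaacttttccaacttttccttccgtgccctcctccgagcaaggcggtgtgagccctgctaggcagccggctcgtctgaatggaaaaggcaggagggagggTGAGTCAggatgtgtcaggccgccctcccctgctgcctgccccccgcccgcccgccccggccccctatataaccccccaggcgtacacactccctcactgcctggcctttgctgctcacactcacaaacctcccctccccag

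Osmr, chr2:57688562-57688811, minus strand: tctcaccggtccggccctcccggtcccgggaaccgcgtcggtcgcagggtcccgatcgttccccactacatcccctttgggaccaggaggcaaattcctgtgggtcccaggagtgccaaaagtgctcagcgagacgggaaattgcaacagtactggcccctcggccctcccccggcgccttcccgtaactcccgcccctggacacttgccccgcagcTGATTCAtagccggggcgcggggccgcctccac

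The Il6 window held a CRE (TGACGTCA, the cyclic AMP response element), 162 to 155 bases before the start, and a match to the kappaB motif of NF-kappaB factors (GGGA, any base, TT, any base, CC), 68 to 59 bases before it. The Il11 window held an AP-1 motif (TGANTCA, bound by Fos and Jun proteins) 142 to 136 bases before the start, and the Osmr window held one 33 to 27 bases before it. Among 33469 rat windows of the same length, searched on both strands, 0.974% held the kappaB motif, 6.34% the AP-1 motif and 1.59% the CRE. The CRE was searched only after the Il6 window had been seen. The STAT motif TTCNNNGAA was in none of the 8 member windows and in 7.67% of all windows. These are matches of letters and not measured binding sites.

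Several libraries stood apart from their groups in markers of cell types and brain regions. Library totals ran from 52268061 to 76311125 reads. Model 3 had the highest summed level of 10 neutrophil markers, 15468.2 normalized reads against 842.6 and 714.6 in model 1 and 4, together with the lowest level of 10 neuronal markers, 115509.6 against 339748.0 and 346229.7. Its sum of 10 oligodendrocyte markers was also the highest, 1866034.4 against 231620.3 and 467793.0 in model 1 and 4. In sham that sum ran from 467164.6 to 1164712.4. Astaxanthin 1 had 44127.8 normalized reads of Gabra6, a receptor subunit of cerebellar granule neurons, where no other library exceeded 255.9. Choroid plexus markers were high in astaxanthin 1 and sham 5, with Ttr at 178856.0 and 108678.2 normalized reads. Model 3 was the highest library of its group in 7 of the 10 members, against 42.6% of all tested genes, and model 1 in the other 3, against 29.5%. Astaxanthin 1 was the lowest of its group in all 10 members, against 38.7% of tested genes. Main results are therefore also given without model 3 and astaxanthin 1, while sham 5 was kept. In the 7 members highest in model 3, this removal must raise the value for astaxanthin against model, whatever the treatment did.

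**Figure D1:**
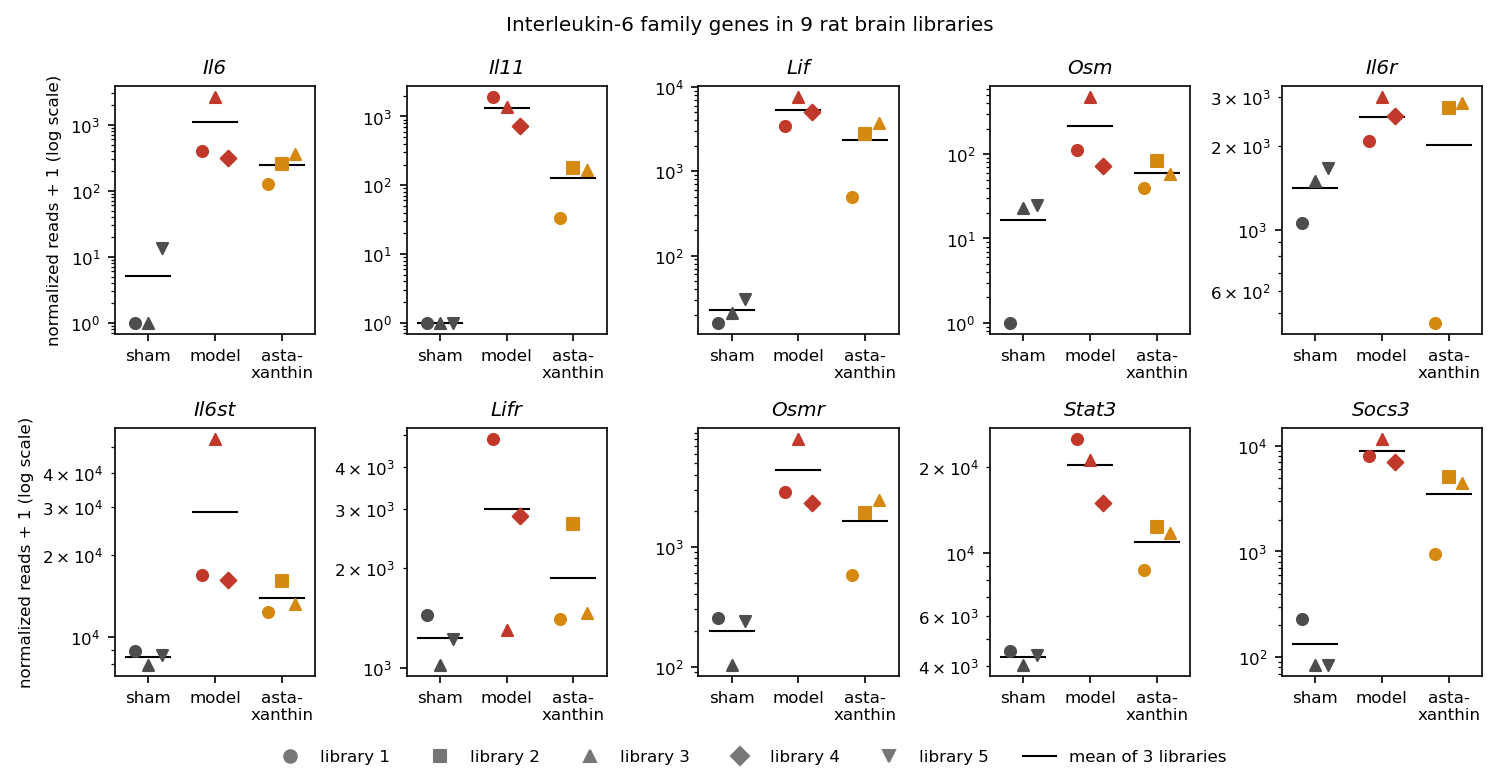
Normalized reads of each of the 10 genes in the 9 libraries, plotted with 1 added on a logarithmic axis, by group; marker shapes give the library number and the bar is the mean of 3 libraries. Il11 lies at 0 in the 3 sham libraries, and the astaxanthin 1 circle is the lowest astaxanthin point in every panel.

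After occlusion 6 of the 10 genes rose, 3 of the 4 cytokines among them. Il11, Lif and Il6 were near or at 0 in sham and between 313.4 and 7526.7 normalized reads in model, and Osmr, Stat3 and Socs3 rose with them. Osm, Il6r, Il6st and Lifr did not pass the test. Of all tested genes, 3.45% rose and 1.32% fell by the same test, limma on log2(normalized reads + 1) with a Benjamini-Hochberg adjusted p under 0.05. No member fell.

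Lif, a cytokine known to act on neural precursors and on microglia, was at 15.0, 19.8 and 30.0 normalized reads in the sham libraries and at 3459.7, 7526.7 and 5035.8 in the model libraries. Every model library was far above every sham library. The ratio of the group means was 247.3, and the log2 fold change was 7.87 ± 0.70 (SE, n = 3 per group, limma adjusted p = 0.00316). The gene lies at chr14:79134574-79140482 (rn7, as for all gene positions here).

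Il11, a cytokine best known for its actions on stromal and blood-forming cells, had no read in any sham library and 1901.2, 1387.2 and 722.8 normalized reads in the model libraries. The model mean was at least 379.7-fold higher than the level that 3 reads per library would give, and the fitted log2 fold change of 10.28 ± 0.71 (limma adjusted p = 0.000785) depends on the added constant. The position of Il11, chr1:69068137-69076129, lies within the annotated span of Tmem238, a gene of a transmembrane protein, at chr1:69056805-69076133, and how reads were divided between the 2 genes is not given in the sources used here. Tmem238 itself had 246.4, 331.1 and 264.0 normalized reads in sham and 2338.8, 2740.5 and 1329.6 in model. Its own log2 fold change was 2.87 ± 0.29 (limma adjusted p = 0.00351). The summed reads of both genes were 12.4 times as high in model as in sham, with a smaller log2 fold change than Il11, 3.56 ± 0.30 (limma adjusted p = 0.00316). With no Il11 read in sham, the sham sum is Tmem238 alone, so the sum does not measure the change of Il11 itself. The size of that change depends on how reads were divided.

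Il6, the cytokine that names the family and a driver of the acute-phase response, had 0, 0 and 12.4 normalized reads in sham and 393.8, 2598.4 and 313.4 in model. All model libraries lay well above sham, and model 3 was 8.29 times the lowest model library. The log2 fold change was 8.17 ± 1.16 (limma adjusted p = 0.0129). The gene lies at chr4:5213394-5219178. The call was lost when sham 1 or sham 3 was left out, with an adjusted p of up to 0.0653.

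Osm, oncostatin M, known to come from neutrophils and macrophages, was the exception among the cytokines. It had 0, 22.2 and 23.8 normalized reads in sham and 109.9, 472.3 and 70.6 in model. The groups did not overlap, but the spread within them was wide and the log2 fold change of 4.22 ± 1.26 did not pass (95% interval 1.36 to 7.09, limma adjusted p = 0.092). Osm (chr14:79104344-79108313) is the next gene to Lif on chromosome 14, 26.3 kb away with no other gene of the table between them.

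Among the receptors, Osmr (chr2:55907132-55961262), the signalling receptor of oncostatin M, rose. It had 252.7, 102.5 and 237.1 normalized reads in sham and 2874.1, 7920.9 and 2304.1 in model, a ratio of means of 22.1 and a log2 fold change of 4.35 ± 0.66 (limma adjusted p = 0.0164). The lowest model library was far above the highest sham library. Leaving out sham 1, sham 3 or model 1 ended this call, with an adjusted p of up to 0.0705.

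Il6st (chr2:44066130-44109936), which encodes gp130, was already abundant in sham at 8872.0, 7919.9 and 8604.9 normalized reads. In model it was at 16957.9, 53301.5 and 16226.8. Every model library was above every sham library, and the log2 fold change of 1.53 ± 0.41 did not pass (95% interval 0.60 to 2.47, limma adjusted p = 0.0704). Model 3 lay far above the other libraries, and without it the fold change was smaller but passed, at 0.97 (adjusted p = 0.0307).

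Lifr (chr2:56250120-56286699), the partner of gp130 for Lif, had 1438.6, 1022.9 and 1223.7 normalized reads in sham and 4838.6, 1298.7 and 2848.5 in model. It was the only member whose model and sham libraries overlapped, because model 3 lay within the sham range. The log2 fold change was 1.10 ± 0.46 (limma adjusted p = 0.189). Lifr is the next gene of the table to Osmr, 288.9 kb away, and yet in model 3 Lifr was the lowest and Osmr the highest of the group.

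Il6r (chr2:175298686-175347536), the binding receptor of Il6, had 1053.3, 1494.8 and 1670.9 normalized reads in sham and 2090.2, 2991.5 and 2556.8 in model. The groups did not overlap, and the log2 fold change of 0.87 ± 0.63 did not pass (95% interval -0.56 to 2.29, limma adjusted p = 0.434). All 9 libraries share 1 estimate of the spread, and astaxanthin 1 stood at 461.0 against 2736.6 and 2841.4 in astaxanthin 2 and 3. The limma adjusted p for model against sham was 0.0472 without astaxanthin 1, 0.0823 in a fit of only the 6 libraries compared and 0.0595 without model 3 and astaxanthin 1.

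Stat3 (chr10:85811218-85863057), the transcription factor through which these receptors act, had 4532.3, 4044.6 and 4373.9 normalized reads in sham and 25035.6, 21143.6 and 14899.0 in model. It was the member with the smallest standard error, with a ratio of means of 4.72 and a log2 fold change of 2.21 ± 0.22 (limma adjusted p = 0.00365). Unlike Il6, Il6st and Osmr, it was not highest in model 3.

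Socs3 (chr10:103193537-103197787), the inhibitor induced by Stat3, had 227.7, 84.0 and 83.9 normalized reads in sham and 7912.9, 11509.3 and 7077.3 in model. The ratio of means was 67.0 and the log2 fold change 6.19 ± 0.65 (limma adjusted p = 0.00373). All model libraries were far above sham.

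The median log2 fold change of the 10 members was 4.28, with Il11 set at its lower bound or not, against 0.016 over all tested genes. In 9 of the 10 the model libraries were all above the sham libraries, against 19.0% of tested genes. Il11, Lif, Stat3 and Socs3 kept their calls whichever of the 9 libraries was left out. Without model 3 and astaxanthin 1, 8 members rose (8.70% of 17421 genes did), Il6st and Lifr being added with log2 fold changes of 0.97 and 1.61 (limma adjusted p = 0.00708 and 0.0244). DESeq2 on the recovered reads called 9 members higher, against 10.5% of genes, with Il6r the one it did not call.

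**Figure D2:**
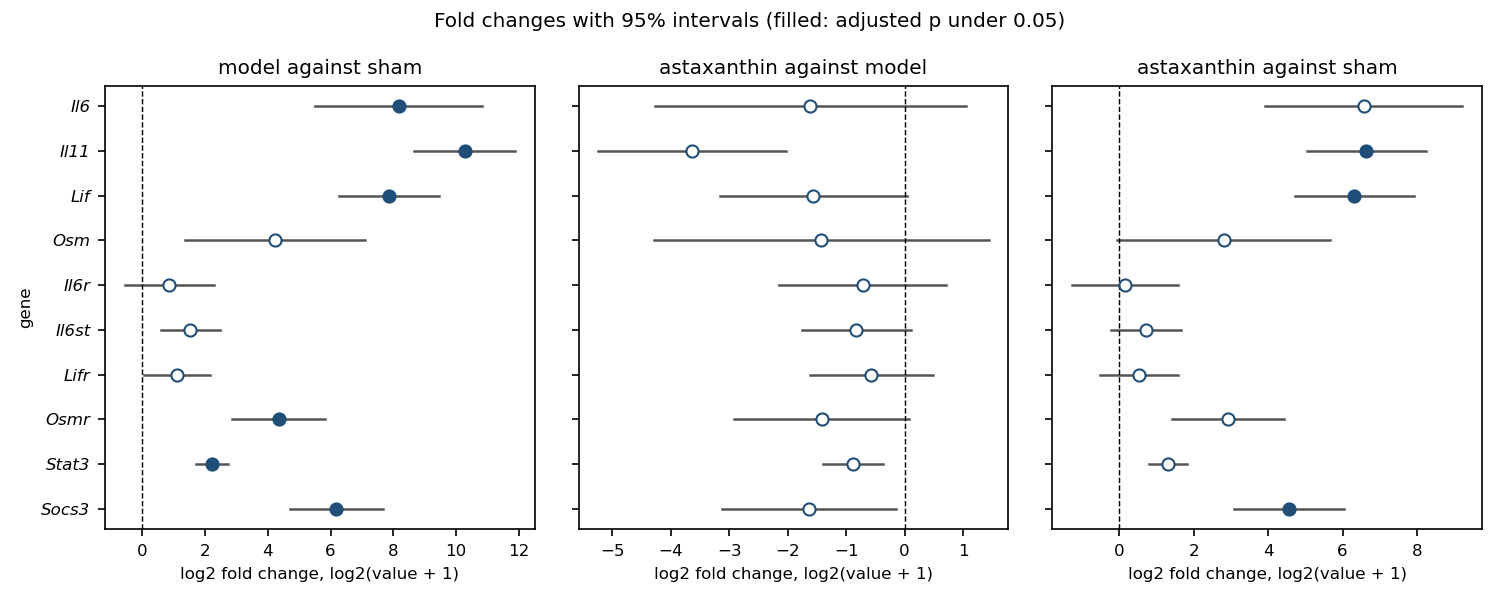
Log2 fold change of each gene in the 3 comparisons, with its 95% interval; filled points passed an adjusted p under 0.05. Filled points number 6 for model against sham, 0 for astaxanthin against model and 3 for astaxanthin against sham.

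Markers of other cell types differed in how many passed the same test, which 3.45% of all genes passed as higher and 1.32% as lower. The 10 monocyte and macrophage markers had a summed level between 3380.2 and 4402.9 normalized reads in sham. In model the sums were 17674.8, 36523.3 and 11452.8, and 3 of 10 rose. The 10 neutrophil markers summed to between 186.5 and 248.9 in sham, where Cxcr2, Elane and Ltf were at 0, and 1 of 7 tested rose. The 9 endothelial markers measured had sums from 11310.2 to 12096.7 in sham, against 19642.1, 72738.8 and 19322.5 in model, with 1 of 9 rising. The 10 pericyte and fibroblast markers reached 58616.7 in model 3 against 13980.4 and 14078.4 in the other model libraries, and none passed. Of 9 tested microglial markers 3 fell, and their sum was 15925.2 to 19160.7 in model against 18452.7 to 21066.0 in sham. Of 10 astrocyte markers 1 rose and 2 fell, and of 9 lymphocyte markers 1 rose. None of 10 neuronal markers passed, and of 10 oligodendrocyte markers 1 fell. The part of these cells in the changes of the members was not tested, and in bulk tissue more cells of a type cannot be told apart from more RNA per cell.

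Levels were compared between genes per kilobase of transcript, as normalized reads summed over transcripts after division by length. In sham, the shared parts of the pathway stood far above its cytokines. Il6st was at 1501 ± 111 normalized reads per kilobase (SD, n = 3), Stat3 at 947 ± 51, Lifr at 364 ± 60.6 and Il6r at 306 ± 70.6. Socs3 and Osmr followed at 43.2 ± 27.0 and 39.7 ± 16.6, values within each other's spread, and Osm, Lif and Il6 were at 8.24 ± 7.15, 5.69 ± 2.05 and 1.87 ± 3.24. Il11 was at 0 in all 3 libraries. Neighbours in this order whose ranges of mean ± SD overlapped were Lifr and Il6r, Socs3 and Osmr, and Osm, Lif, Il6 and Il11.

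In model the order changed, although Il6st and Stat3 stayed first at 5103 ± 3724 and 4564 ± 1146 normalized reads per kilobase. Socs3 came next at 2938 ± 819, and Lif and Il11, at 1425 ± 563 and 1253 ± 550, had higher means than every receptor but Il6st. The ranges of mean ± SD of Lif and Il11 overlapped those of Lifr and Osmr. Il6 at 921 ± 1118, Lifr at 893 ± 524 and Osmr at 892 ± 642 did not differ beyond their spread. Il6r was at 560 ± 105 and Osm last at 119 ± 122. In the astaxanthin group Il6st was at 2442 ± 376 and Stat3 at 2410 ± 437, followed by Socs3 at 1151 ± 738, Lif at 615 ± 442, Lifr at 547 ± 217, Il6r at 438 ± 294, Osmr at 331 ± 195, Il6 at 214 ± 89.6, Il11 at 116 ± 74.7 and Osm at 31.7 ± 11.5. From Socs3 down, the ranges of mean ± SD of neighbours in that order overlapped.

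**Figure D3:**
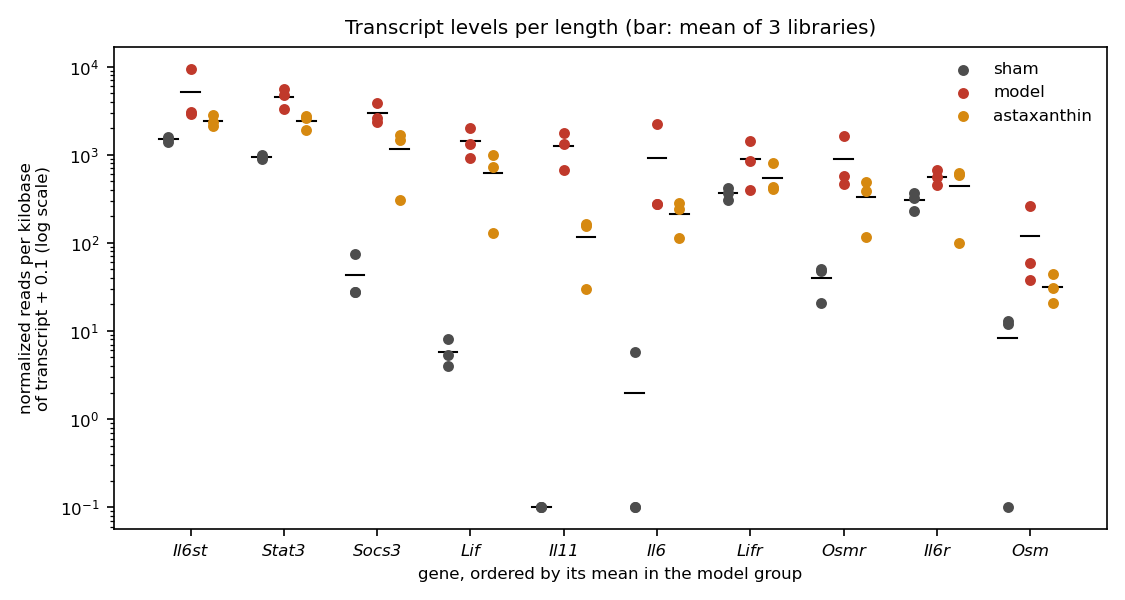
Normalized reads per kilobase of transcript, with 0.1 added on a logarithmic axis, for the 10 genes ordered by their model mean; points are libraries and bars are means of 3. The sham points of the cytokines lie far below those of Il6st and Stat3, and in model Lif and Il11 lie among the receptors or above them.

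The 10 genes had 21 of the 45893 transcripts in the transcript table. Lif, Osm, Il6r, Osmr and Socs3 had 1 each. Nearly all Il11 reads were assigned to Il11-201, with at most 0.49% on Il11-202. The Il6 reads were divided among 3 transcripts, and the division varied within groups. Il6-202 took 37.1%, 13.4% and 81.8% of them in model 1, 3 and 4 and 67.0%, 70.4% and 26.5% in astaxanthin 1, 2 and 3, so the groups overlapped. Stat3-202 carried most Stat3 reads, and the longer Stat3-201 took 6.85%, 5.99% and 18.6% in sham, 5.49%, 2.75% and 5.83% in model and 2.26%, 6.54% and 7.64% in astaxanthin. Il6st-202 carried 71.0% to 83.4% of Il6st reads in every library and Il6st-206 most of the rest. Stat3 and Il6st thus had the same main transcript in all 3 groups.

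The rest of the pathway was read from lists of genes. Among other cytokines of the family, Cntf and Ebi3 did not pass in model against sham. Cntf, the ciliary neurotrophic factor made by astrocytes, had a log2 fold change of 0.46 ± 0.40 (limma adjusted p = 0.524), and Ebi3, the beta subunit of interleukin-27, one of 0.86 ± 0.71 (limma adjusted p = 0.499). Of the other receptors, none of 4 passed. Cntfr, the receptor of Cntf, was at 3145 ± 225 normalized reads in sham and between 1798.8 and 2472.9 in model, groups that did not overlap, with a log2 fold change of -0.56 ± 0.36 (limma adjusted p = 0.375). Il31ra had no read in sham and up to 143.4 normalized reads in model, where the lowest library was also at 0.

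Of 8 Janus kinases and other STATs tested, Jak2 alone rose, against 3.45% of all tested genes. Jak2, a kinase that binds gp130, lay between 2299.3 and 2703.0 normalized reads in sham and between 5688.8 and 9556.2 in model, with a log2 fold change of 1.52 ± 0.26 (limma adjusted p = 0.022). Of 15 other inhibitors, Ptpn2 and Socs4 rose, against the same 3.45%. Ptpn2, a phosphatase that acts on Janus kinases and STATs, had a log2 fold change of 1.35 ± 0.22 (limma adjusted p = 0.0176) and Socs4, a relative of Socs3, one of 0.77 ± 0.17 (limma adjusted p = 0.0406). The median over the 15 was 0.22, and Socs3 at 6.19 stood far above it.

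Genes known as targets of Stat3 rose in larger number: 15 of 23 tested, against 3.45% of all tested genes, with none lower, against 1.32%. The list was drawn up from general knowledge of the pathway with earlier results of these data known, and many of its genes also answer to other factors. Its median log2 fold change was 2.64 against 0.02 over all genes, and 22 of 23 values were above 0, against 50.9% of tested genes. Timp1, an inhibitor of matrix proteases, had the greatest increase of those named, 7.74 ± 0.82 (limma adjusted p = 0.00373), from 179.2 ± 48.4 normalized reads (SD, n = 3) to 16592.7 to 125631.7. Cd44, a hyaluronan receptor, was more even, between 15210.6 and 16617.7 in model, with a log2 fold change of 5.13 ± 0.56 (limma adjusted p = 0.00422). Sbno2, a transcriptional regulator induced by interleukin-10 in macrophages, rose by 2.99 ± 0.29 (limma adjusted p = 0.00351). Pim1, a survival kinase, rose by 2.75 ± 0.29 (limma adjusted p = 0.00373), Irf1, an interferon-response factor, by 2.25 ± 0.36 (limma adjusted p = 0.0176), and Hif1a, the hypoxia-response factor, by 1.45 ± 0.20 (limma adjusted p = 0.0122). Without model 3 and astaxanthin 1, 20 of the 23 passed, all higher, against 8.70% of 17421 genes that rose.

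Acute-phase genes, which interleukin-6 is known to induce in liver, gave 6 of 17 higher, against 3.45% of all tested genes, and none lower. The secreted antagonist Il1rn, which blocks the interleukin-1 receptor, had a log2 fold change of 4.16 ± 0.61 (limma adjusted p = 0.015), from 61.3 ± 14.7 to 1161.3 ± 451.3 normalized reads (SD, n = 3). Lbp, which presents bacterial lipopolysaccharide, had one of 9.29 ± 1.44 (limma adjusted p = 0.0171), with model libraries from 1304.2 to 28010.7. The metallothioneins Mt1 and Mt2A rose by 3.57 ± 0.62 and 2.87 ± 0.64 (limma adjusted p = 0.0221 and 0.0428). The copper carrier Cp and the fibrinogen chain Fga rose by 3.40 ± 0.66 and 5.24 ± 1.06 (limma adjusted p = 0.0295 and 0.0327). Mt1 (chr17:74786654-74787135) and Mt2A (chr19:10832002-10832784) are close copies of each other that lie on different chromosomes. Their reads may be divided between them, so they may not be separate rises.

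**Figure D4:**
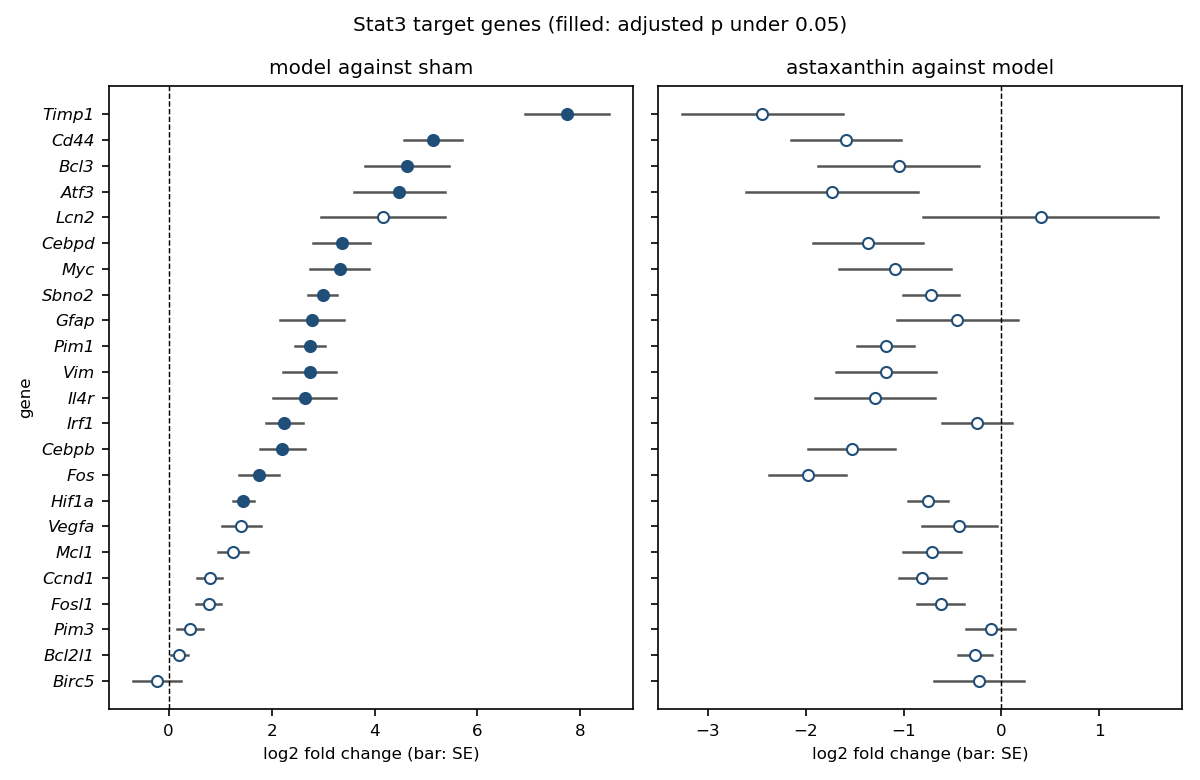
Log2 fold changes of 23 Stat3 target genes with their standard errors, for model against sham on the left and astaxanthin against model on the right, in the same order; filled points passed an adjusted p under 0.05. On the left 15 points are filled and 22 lie above 0, while on the right none is filled and 22 lie below 0.

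Rats given astaxanthin before the occlusion were then compared with rats given the occlusion alone. No member passed the test, and neither did any of the 17770 genes (0.0%), while 1579 genes (8.89%) had an unadjusted p under 0.05. The model libraries enter this comparison and the one above, so the values of the 2 comparisons are not independent. All 10 log2 fold changes were below 0, against 50.9% of tested genes, and their median was -1.43 against -0.0097. In 4 members, Il11, Il6st, Stat3 and Socs3, every astaxanthin library was below every model library, against 7.24% of tested genes. Unadjusted p-values under 0.05 with a lower value were found for 3 members, Il11, Stat3 and Socs3, against 5.03% of tested genes.

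Il11 had 32.5, 176.1 and 166.9 normalized reads in the astaxanthin libraries, all under the lowest model value of 722.8. The model mean was 10.7 times the astaxanthin mean. The log2 fold change was -3.63 ± 0.71 (95% interval -5.24 to -2.03, limma adjusted p = 0.548), and by its p the gene ranked 13 of all tested genes. Tmem238, which spans it, was at 875.3, 1046.2 and 986.4 normalized reads, with a log2 fold change of -1.08 ± 0.29, and the 2 genes together had one of -1.60 ± 0.30 (both limma adjusted p = 0.548). Without model 3 and astaxanthin 1 the value for Il11 was -2.77.

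Stat3 was at 8678.9, 12357.5 and 11726.4 normalized reads with astaxanthin, between the sham and model ranges and overlapping neither. Its log2 fold change from model was -0.88 ± 0.22 (95% interval -1.39 to -0.37, limma adjusted p = 0.548, rank 99), and -0.68 without model 3 and astaxanthin 1. Socs3 was at 940.3, 5099.5 and 4480.5, also between the ranges, with a log2 fold change of -1.64 ± 0.65 (95% interval -3.13 to -0.15, limma adjusted p = 0.548), and -0.65 without those libraries. Il6st was at 12324.2, 16147.0 and 13224.0, just under the lowest model value of 16226.8, with a log2 fold change of -0.83 ± 0.41 (95% interval -1.76 to 0.11, limma adjusted p = 0.57) that became -0.18 without those libraries.

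The other cytokines and receptors overlapped between the groups. Lif was at 498.9, 2733.7 and 3766.5 normalized reads, a log2 fold change of -1.56 ± 0.70 (95% interval -3.16 to 0.04, limma adjusted p = 0.563), and one of -0.38 without model 3 and astaxanthin 1. Il6 was at 124.7, 253.0 and 357.4, and its value of -1.61 ± 1.16 (95% interval -4.26 to 1.04, limma adjusted p = 0.646) was -0.22 without those libraries. Osmr was at 578.1, 1922.0 and 2445.5, and its value of -1.42 ± 0.66 (limma adjusted p = 0.567) was -0.25 without them. Osm was at 39.0, 81.7 and 57.3, with -1.43 ± 1.26 (limma adjusted p = 0.70), or -0.36 without them. Lifr was at 1401.3, 2705.4 and 1456.7, with -0.57 ± 0.46 (limma adjusted p = 0.677), and its value was further from 0, at -0.90, without them. Il6r had -0.72 ± 0.63 (limma adjusted p = 0.695), which turned to 0.27 without them.

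Without model 3 and astaxanthin 1 the median of the 10 members was -0.37, and no gene of any kind passed. In 7 of the 10 members these were the highest model and the lowest astaxanthin library, so their upward shift was built in. DESeq2 on the recovered reads called Il11 and Stat3 lower, with log2 fold changes of -3.41 and -0.90 and adjusted p of 0.00118 and 0.0312, against 0.827% of tested genes called lower. The quasi-likelihood test of edgeR called no gene. The tools thus differed on Il11 and Stat3, and the intervals above do not show that the remaining members were alike in both groups.

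The pathway lists gave no call in this comparison. Of the 23 Stat3 targets, 22 had values below 0, against 50.9% of tested genes. Their median was -0.81 against -0.01 over all genes, or -0.25 without model 3 and astaxanthin 1. Fos, a subunit of AP-1, was between 1722.3 and 5005.1 normalized reads with astaxanthin and between 8578.9 and 15435.2 in model, with a log2 fold change of -1.98 ± 0.39 (limma adjusted p = 0.548). The astaxanthin range of Fos took in the sham range, 2878.4 to 3657.5. Pim1 was between 312.4 and 592.7 against 954.6 to 1252.4 in model, with -1.18 ± 0.29 (limma adjusted p = 0.548). Jak2 had -0.88 ± 0.26, Ptpn2 -0.61 ± 0.22 and Il1rn -2.36 ± 0.61 (each limma adjusted p = 0.548), and for these 3 genes every astaxanthin library was below every model library. Monocyte and macrophage markers summed to 5678.9, 10771.2 and 11095.8 in the astaxanthin libraries, all below model, and microglial markers to between 11731.0 and 13855.4, also below model. Neutrophil markers summed to 432.8, 1020.9 and 651.9. Their part in the values of the members was not tested.

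Against sham, 3 members were higher with astaxanthin: Il11, Lif and Socs3. Of all tested genes 0.236% rose in this comparison. Il11 was at least 35.5-fold higher than the level of 3 reads per library, with a fitted log2 fold change of 6.64 ± 0.71 (limma adjusted p = 0.0159). With Tmem238 added, the log2 fold change was 1.96 ± 0.30 and no longer passed (limma adjusted p = 0.0507). Lif was 108.0 times as high as in sham, with a log2 fold change of 6.31 ± 0.70 (limma adjusted p = 0.0204), and Socs3 26.6 times, with 4.56 ± 0.65 (limma adjusted p = 0.0409).

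The remaining members gave smaller or more variable values against sham. Il6 had a log2 fold change of 6.57 ± 1.16 (limma adjusted p = 0.0848), Osmr one of 2.92 ± 0.66 (limma adjusted p = 0.147) and Stat3 one of 1.32 ± 0.22 (limma adjusted p = 0.0684). In these 3, as in Osm and Il6st, every astaxanthin library was above every sham library. In 8 of 10 members the groups did not overlap in that way, against 13.0% of tested genes, and Il6r and Lifr were the exceptions. All 10 values were above 0, against 53.2% of genes, with a median of 2.86 against 0.038.

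The calls against sham rested on few libraries. No member passed when any sham library, astaxanthin 2 or astaxanthin 3 was left out. Without model 3 and astaxanthin 1, 7 members rose, against 2.93% of genes. DESeq2 called 6 higher, against 2.94% of genes, and edgeR none. Among the 23 Stat3 targets, Sbno2 and Timp1 rose, against 0.236% of all tested genes. Their log2 fold changes were 2.27 ± 0.29 and 5.30 ± 0.82 (limma adjusted p = 0.0298 and 0.0494). Without model 3 and astaxanthin 1, 13 of the 23 rose, against 2.93% of genes.

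The genes that varied most like 3 of the members across the 9 libraries were found by Pearson's correlation of log2(value + 1). These values mostly follow the difference between sham and occluded rats. All genes of a library also share its depth and tissue mixture, which differed between libraries. Il6 was most like the neutrophil-attracting chemokines Cxcl1 (r = 0.993) and Cxcl3 (r = 0.982) and the macrophage scavenger receptor Msr1 (r = 0.984). Cxcl1 had 0, 0 and 12.4 normalized reads in sham, as Il6 did, and 849.1, 3001.8 and 286.2 in model. Socs3 was most like Csf2rb, the shared receptor chain for granulocyte-macrophage colony-stimulating factor (r = 0.997), Sbno2 (r = 0.994) and the elongation factor partner Eaf1 (r = 0.990). Stat3 was most like Plau, the urokinase plasminogen activator (r = 0.987), Suco (r = 0.985) and Rbpj, the DNA-binding partner of Notch (r = 0.985). Among the members themselves, Il11 and Stat3 had the highest value, r = 0.991. Next came Il11 and Socs3 at 0.978, Socs3 and Lif at 0.975, Il11 and Lif at 0.974, and Socs3 and Osmr at 0.970. Il6st and Lifr had the lowest, 0.228.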

How the data were processed

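The 9 rat brain libraries were 3 each of sham, model and astaxanthin. The authors worked on build rn7 with STAR, StringTie, DESeq2 and FastQC, per the submitters' processing notes, with no versions or settings given; whether counting used the strand is not given in the sources used here. The values the authors deposited are a signal, reads normalized by 1 factor per library. Dividing each library by that factor returned whole reads (tolerance 0.01, 100% of entries), which summed to 52268061 to 76311125 per library. How the factors were set is not stated. Depth limits only low genes; a count of 0 allows up to 3 reads, or 2.87 to 3.52 normalized reads on average by group, for counting error only.

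The values being normalized, log2(value + 1) was fitted with limma 3.58.1 in R 4.3.3, by group, over all 9 libraries together, with robust and trended moderation of the variance. Genes reaching 0.5 in 3 or more libraries, 17770 of them, entered a two-sided test with Benjamini-Hochberg adjustment and a threshold of 0.05. The fold change of a low gene depends on the added constant and can lie above or below the value of another method. For Osm in model against sham it was 4.22 with 1 added, 5.36 with 0.1 and 3.35 with 5, and DESeq2 gave 3.82. The fit was tested on simulated data. edgeR 4.0.16 and DESeq2 1.42.0 were run on the recovered reads as alternatives, beside other scalings, pseudocounts and filters, leaving libraries out and a replicate block. Adding Il11 to Tmem238 and searching for the CRE were chosen after seeing the data. The members and lists were chosen with earlier results of these data known. Named genes were all members, up to 6 passing genes of each list with the smallest p (or 2 where none passed), and the 3 genes most correlated with Il6, Socs3 and Stat3. Of the listed genes, Clcf1, Il31, Junb, Crp, Cldn5, Cd4 and Car8 were not analysed here, the list of other family cytokines is not reported here as a whole, and Jak3 and Fgb were below the filter. Transcript reads summed to the gene reads in all 22888 genes. All 10 member symbols matched RefSeq, whose GRCr8 positions are used for the promoter windows only.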

Additional observations from a re-analysis of the deposited data

How the results depend on the processing

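Of 630 values (10 members, 3 comparisons, 21 alternatives), 565 kept their direction and their side of the threshold, 40 no longer passed, 19 newly passed and 6 changed direction. Those 6 were all of Il6r: for astaxanthin against model 0.15 without astaxanthin 1 and 0.27 without model 3 and astaxanthin 1, and for astaxanthin against sham -0.05 without sham 1, -0.27 without astaxanthin 2, -0.30 without astaxanthin 3 and -0.13 with the replicate block. Leaving out 1 library each, Il6r ran from -1.16 to 0.15 against model and from -0.30 to 1.01 against sham. The cause was not tested.

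For model against sham, members passing numbered 6 of 10 and genes 848. DESeq2 gave 2920 genes and the removal of model 3 and astaxanthin 1 gave 2710. Leaving out 1 library each gave 4 to 7 members and 72 to 1608 genes; the fewest genes came without sham 3 (72) and sham 1 (79) and the most without astaxanthin 1 (1608). The other single removals past 1.5 times were model 1 (124), sham 5 (171), astaxanthin 2 (493), model 3 (549) and astaxanthin 3 (565). For astaxanthin against model, DESeq2 gave 2 members and 206 genes against 0 and 0, and leaving out 1 library each gave 0 members and 0 to 3 genes, 3 without model 4. For astaxanthin against sham, 3 members and 49 genes passed. DESeq2 gave 6 and 791, the removal of model 3 and astaxanthin 1 gave 7 and 713, pseudocount 0.1 gave 75 genes, and pseudocount 5 gave 1 and 19. The quasi-likelihood test of edgeR gave 0 and 0, and a fit of only the 6 libraries compared gave 0 and 4. Leaving out 1 library each gave 0 to 5 members and 1 to 149 genes.

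Libraries 1 and 3 share numbers across groups, but the labels do not say that a number pairs them, and same-numbered libraries had correlations of -0.12 to 0.067 in their deviations. A fit with the replicate block gave 0 members and 0 genes in every comparison. In that fit astaxanthin 2, model 4 and sham 5, whose numbers occur once, add nothing to the group differences. The differences then rest on libraries 1 and 3 alone, so the lack of calls cannot settle whether numbers pair samples. Scaling by TMM or by median-of-ratios and the filters on low values left the count of members at 6, 0 and 3. Depth limits the sham values of Il6, Il11 and Osm.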
